A study of Phalaenopsis equestris with 4 samples.

Results

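Leaf and flower of the butterfly orchid Phalaenopsis equestris were compared over 5169 assembled contigs, those of 50 FPKM or more in leaf, in flower or in both. These were 5169 of 221878 contigs in the table of expression values, and they fell in 4654 Trinity genes. A contig is a transcript put together by the assembler Trinity from the reads themselves, and contigs that it treats as isoforms of each other share a Trinity gene. FPKM is by its usual definition the number of fragments scaled to transcript length and library size. The level of 50 was chosen to set contigs of low value aside. The 13 contigs of assembly component c157498, which held 75.9% of the summed leaf FPKM and 0.978% of the flower FPKM, were left out. The libraries came from leaf and flower tissue of 3-year-old plants, 1 library per tissue, and no genotype or treatment was given in the labels. Root and stem of the same age, also 1 library each, were used for scaling and for description. Since each tissue had a single library, the differences carry no replicate check and no p-value. The labels do not say how many plants were pooled or which floral organs were taken.

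Leaves are the main site of photosynthesis in most plants, and the thick leaves of Phalaenopsis also store water and fix carbon dioxide at night by crassulacean acid metabolism. The flower joins several organs, the sepals, petals, lip and column, with programmes for pigment, scent and reproductive tissue. Bulk tissue values average over these cell types, so fewer cells of a type and less RNA per cell cannot be told apart. The tables pair contigs with gene names only for heat shock proteins and R genes, so the marker genes of leaf and flower could not be looked up, and most contigs are named here by their contig number alone.

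The 5169 contigs carried 74.2% of the summed leaf FPKM and 64.1% of the summed flower FPKM, with c157498 set aside in both sums. The deposited values had a regular structure. In each library every distinct value checked was a whole multiple of a single step, within 0.0005 FPKM. The step was 0.0319 in leaf, 0.00708 in flower, 0.00724 in root and 0.00612 in stem. Read against a step of 0.01, these steps are factors of 3.19, 0.708, 0.724 and 0.612, and the product of the 4 factors was 1. The leaf factor was 4.51 times the flower factor, a difference of 2.17 log2 units. The sources used here do not say what these factors are. If they are a normalisation between libraries applied by the authors to rounded FPKM values, dividing them out undoes it. The comparison was therefore made on the values as deposited, after median-of-ratios scaling, and with the factors divided out. Median-of-ratios scaling, over 24591 contigs of at least 1 FPKM in all 4 libraries, lowered leaf against flower by 0.82 log2 units.

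As deposited, most of the contigs were higher in leaf. Of the 5169 contigs 4233 were higher in leaf and 936 in flower, and the median difference, leaf minus flower on the log2(FPKM + 1) scale, was 1.27. At a difference of at least 4-fold on this scale, 1814 contigs were higher in leaf, 35.1% of those compared, and 248 were higher in flower, 4.8%. The remaining 3107 contigs lay within 4-fold, 1762 of them within 2-fold. Wide differences were also more numerous on the leaf side: 808 contigs were at least 16-fold higher in leaf and 132 in flower. At 64-fold or more the counts were 258 and 69.

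**Figure D1:**
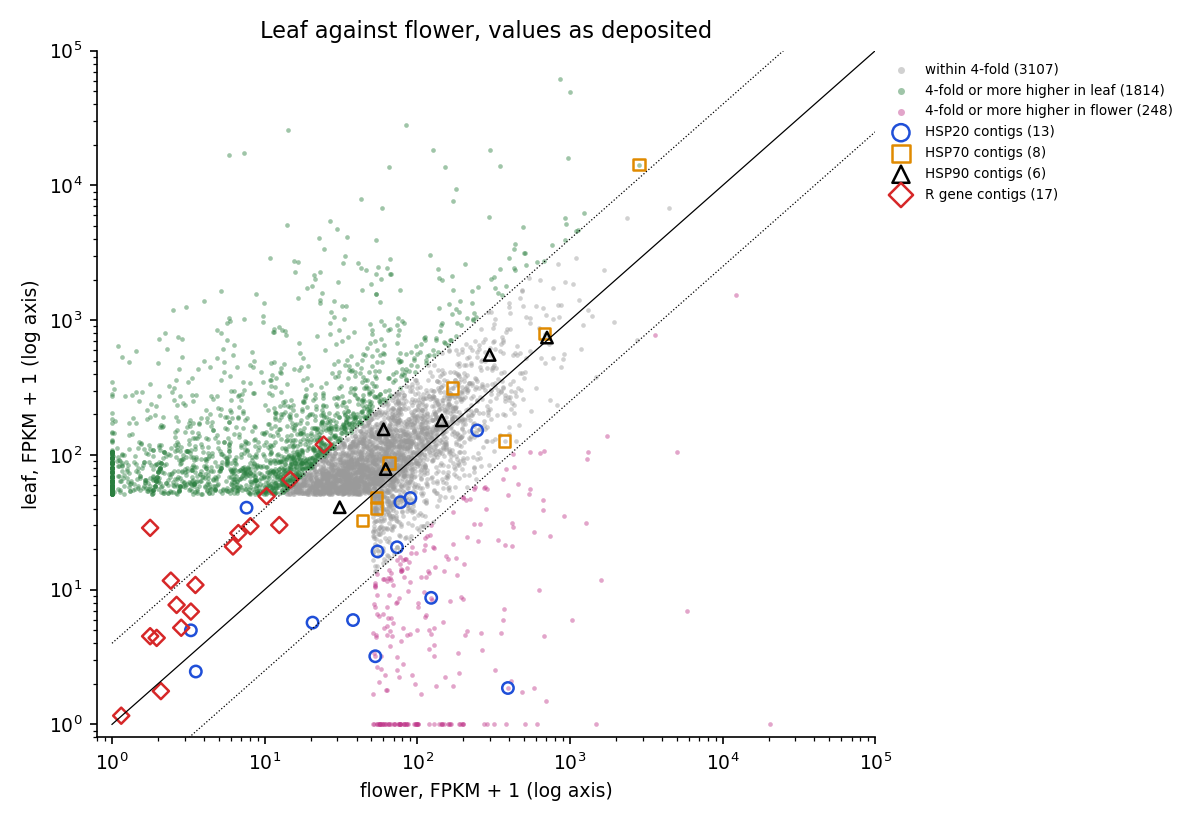
Leaf (y axis) against flower (x axis), both as deposited FPKM + 1 on log axes, for the 5169 contigs and for all contigs of the heat shock and R gene tables (open symbols, including those under 50 FPKM). The solid line marks equal values and the dotted lines 4-fold. Of the 5169 contigs, 1814 lie above the upper dotted line and 248 below the lower one. The corner at lower left holds only open symbols, since the 5169 contigs were chosen at 50 FPKM.

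The balance between the tissues depended on the scaling. After median-of-ratios scaling the median difference was 0.46, with 1223 contigs at least 4-fold higher in leaf, 23.7%, and 367 in flower, 7.1%. With the step factors divided out the median was -0.85, and 788 contigs, 15.2%, were at least 4-fold higher in leaf against 1045, 20.2%, in flower. The contigs were not chosen anew for this scaling. All 474 that reached 50 FPKM in flower alone pass 4-fold to flower under it by construction. Leaf was thus the higher side in this share of the 4-fold differences: 88.0% as deposited, 76.9% after median-of-ratios scaling, 66.6% with library sums set equal and 43.0% with the factors divided out. The sign of the median therefore turned between scalings. These factors move all contigs by at most 2.17 log2 units, so differences wider than that, such as those of the 8 widest contigs on each side, cannot change direction between them.

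**Figure D2:**
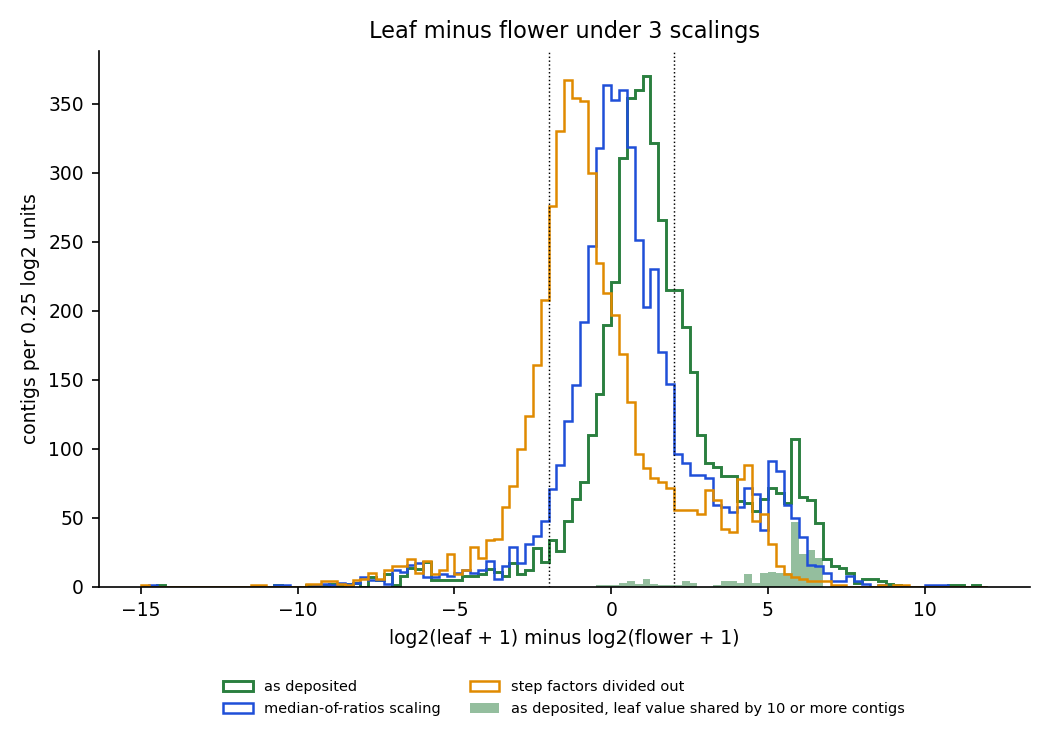
Number of contigs (y axis, per 0.25 log2 units) by the leaf minus flower difference of log2(FPKM + 1) (x axis) under 3 scalings; the filled bars are contigs whose leaf value was shared by 10 or more contigs, and dotted lines mark 4-fold. The main peak moves with the scaling, from a median of 1.27 as deposited to 0.46 and -0.85, and most of the filled bars lie to the right of it.

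The level of 50 FPKM admitted the tissues unequally. It was reached in leaf alone by 2919 contigs, in flower alone by 474 and in both tissues by 1776. A contig admitted by a single tissue had to be higher there, so the counts for such contigs follow from the choice. Over the 1776 contigs at 50 FPKM or more in both tissues, 169 were at least 4-fold higher in leaf and 21 in flower as deposited, with a median difference of 0.50. After median-of-ratios scaling these counts were 64 and 67 and the median was -0.32. With the step factors divided out they were 25 and 569, with a median of -1.65. Among contigs that were well expressed in both tissues, the 4-fold counts thus had an excess on the leaf side in the deposited values, and not under the other two scalings. Pearson's r of log2(FPKM + 1) between leaf and flower was 0.54 over these 1776 contigs and 0.13 over all 5169, with Spearman's rho of 0.49 and 0.23. These describe contigs of 2 libraries, from which contigs low in both are absent by choice.

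Differences were more frequent among the most abundant contigs. Where the higher of the leaf and flower values was 50 to 100 FPKM, 32.4% of 2770 contigs were at least 4-fold higher in leaf and 4.4% in flower. At 100 to 200 FPKM the shares were 31.8% and 4.4% of 1360 contigs, and at 200 to 1000 FPKM they were 42.0% and 6.3% of 871. At 1000 FPKM or more, 70.8% of 168 contigs were higher in leaf and 7.1% in flower. After median-of-ratios scaling this top class had 51.8% and 8.3%, against 22.5% and 6.4% at 50 to 100 FPKM. With the step factors divided out the top class had 42.3% and 11.3%, against 15.4% and 19.6% at 50 to 100 FPKM. The flower-high share was thus lower in the top class under that scaling. The class holds the same 168 contigs under each scaling and was chosen by the higher deposited value, which is mostly the leaf value, so its leaf excess is in part fixed by that choice. The 10 most abundant contigs held 15.3% of the leaf sum and 8.91% of the flower sum. Of the 100 most abundant leaf contigs, 88 were at least 4-fold higher in leaf and 0 were as much higher in flower, as deposited. Of the 100 most abundant flower contigs, 29 were at least 4-fold higher in flower and 17 in leaf, and 29 contigs were among the 100 most abundant of both tissues. Each list was ranked by a value that enters the difference, so its lean to that side is in part fixed by the choice. These counts were not made under the other scalings.

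A part of the leaf-high side lay at values that recurred exactly. In leaf, 12 values between 50.7 and 103 FPKM were each shared by at least 10 contigs, whereas no flower value of 50 FPKM or more was shared by more than 3. The value 54.3 FPKM was found in 31 contigs, 22 of them listed at 0 in flower, and 79.5 FPKM in 24 contigs, 12 of them at 0 in flower. Together 214 contigs, 4.14% of those compared, had such a leaf value. Of these 192 were at least 4-fold higher in leaf, 126 were listed at 0 in flower and 46 at 0 in flower, root and stem alike. In the range from 5 to 7 log2 units, 150 of 502 contigs had a recurring leaf value. A wider set, 23544 contigs that were each the only contig of their Trinity gene and above 0 in both tissues, mostly under 50 FPKM, was used to look at the ratio of leaf to flower. The most frequent ratio there lay at 4.85 log2 units, with 316 contigs in a bin of 0.02 against a mean of 84.7 over the 41 bins centred on it. At this ratio a leaf value was 28.8 times the flower value. Such leaf values may rest on very few reads even above 50 FPKM. Read numbers and contig lengths were not analysed here, and their part in the leaf-high counts was not tested. Without the recurring values 1622 contigs were at least 4-fold higher in leaf as deposited and 1039 after median-of-ratios scaling.

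The widest leaf-high contigs were abundant in leaf and low in flower, and they differed from each other in root and stem. Contig c47911_g1_i1 had the widest difference. Its leaf value was 16856 FPKM, its flower value 4.80 and its stem value 123, with 0 listed in root, a difference of 11.51 log2 units as deposited and 10.71 after median-of-ratios scaling. Contigs c138701_g2_i1 and c138701_g1_i1, of the same assembly component, followed. The former had 17403 FPKM in leaf, 6.32 in flower, 38.5 in root and 6.69 in stem, and the latter at 25695 in leaf, 13.2 in flower, 42.0 in root and 25.4 in stem. Their differences exceeded those of every other leaf-high contig by more than 1 log2 unit. The next contigs were rarer. Contig c149258_g1_i1 was at 641 FPKM in leaf, 0.099 in flower and 0 in root and stem. Contig c176309_g1_i1 was at 530 in leaf and 0.17 in flower and was likewise listed at 0 in root and stem. Both were thus detected almost in leaf alone. Contig c146769_g1_i1 was at 1189.8 FPKM in leaf and between 1.52 and 3.17 in flower, root and stem, and c146215_g1_i1 was at 1256 in leaf and between 0.306 and 2.04 in the others. Contig c145428_g2_i1, at 589 FPKM in leaf and 0.446 in flower, differed from these in its root level of 26.2 and stem level of 10.8. The differences of these 8 contigs ran from 8.67 to 11.51 log2 units as deposited, and from 6.67 to 9.41 with the step factors divided out.

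The highest leaf contigs were only in part the ones with the widest differences. Contigs c47911_g1_i1, c138701_g2_i1 and c138701_g1_i1, described above, ranked 8, 7 and 4 in leaf, the last of them among the 6 highest. With c157498 left out, c138432_g3_i1 was the most abundant leaf contig, at 61634 FPKM, with 860 in flower, 396 in root and 1461 in stem. Contig c138432_g1_i1 of the same component reached 49184 FPKM in leaf, 1002 in flower, 523 in root and 1298 in stem. Both were among the 41 most abundant flower contigs as well, and their leaf excess was 6.16 and 5.62 log2 units as deposited, and 3.99 and 3.44 with the step factors divided out. Component c138432 alone made up 6.40% of the leaf sum and 0.270% of the flower sum. Contig c155437_g4_i3 reached 28086 FPKM in leaf, with 83.1 in flower, 28.7 in root and 91.6 in stem. Its component, c155437, held 9 of the contigs compared, of which 8 were at least 4-fold higher in leaf. Contig c145077_g1_i1 reached 18290 FPKM in leaf, with 126 in flower, 472 in root and 960 in stem. Contig c127214_g2_i1 reached 18266 FPKM in leaf, with 297 in flower, 204 in root and 373 in stem. The leaf-high components also included c138265, with 6 of 8 contigs at least 4-fold higher in leaf, and c150335, with 8 of 8. In c150335 the levels were modest, with a sum of 1413 FPKM in leaf and 126 in flower.

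Flower-high contigs were fewer as deposited and after median-of-ratios scaling, 248 and 367, but more numerous than leaf-high ones with the step factors divided out, at 1045 against 788. Of these 1045, 474 reached 50 FPKM in flower alone and pass 4-fold under that scaling by construction. Several of the widest flower-high contigs were detected in no other tissue or at traces only. Contig c118652_g1_i1, the most abundant flower contig at 20372 FPKM, was listed at 0 in leaf and stem and stood at 0.261 in root. Its component held 2 of the contigs compared and 2.999% of the flower sum. Contig c194731_g1_i1 had a flower value of 5815 FPKM, with 5.94 in leaf, 0 in root and 0.073 in stem, a difference of -9.71 log2 units as deposited and -10.43 after median-of-ratios scaling. Contig c118725_g1_i1 was at 1485 in flower, 0.416 in stem and 0 in leaf and root. These 3 contigs thus had no leaf value above 6 FPKM. Contigs c161974_g1_i1, at 606 FPKM in flower, and c118952_g1_i1, at 691, were listed at 0 in root and stem, the former also in leaf, where the latter stood at 0.479. Contig c143949_g1_i1 was at 315 in flower, 0.232 in stem and 0 in leaf and root. A second kind of flower-high contig shared its expression with stem. Contig c128181_g1_i1 was at 506 FPKM in flower and 197 in stem, and c184854_g1_i1 at 382 in flower and 83.4 in stem, with both listed at 0 in leaf and at most at 0.109 in root.

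**Figure D3:**
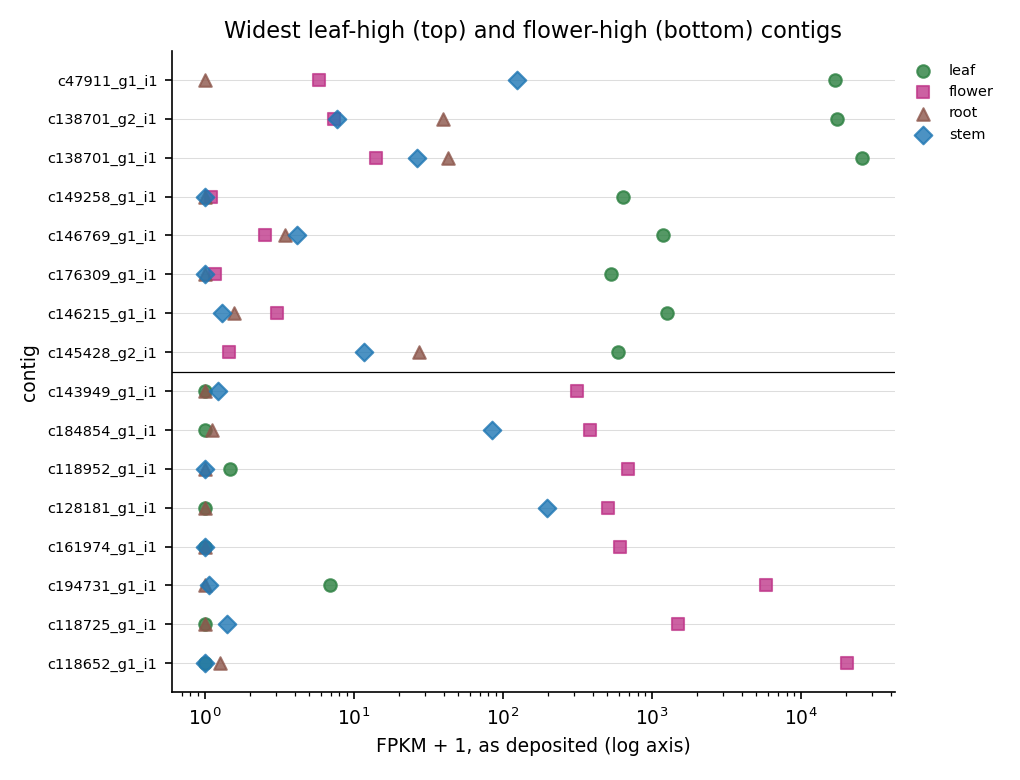
Deposited FPKM + 1 (x axis, log) in leaf, flower, root and stem for the 8 contigs with the widest leaf excess (top) and the 8 with the widest flower excess (bottom); a point at 1 is a contig listed at 0. The leaf-high contigs reach 530 to 25695 FPKM in leaf, and among the flower-high contigs only c128181_g1_i1 and c184854_g1_i1 have a stem value above 1 FPKM.

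Other abundant flower contigs were also expressed in leaf. Contig c155537_g1_i1 was at 12196 FPKM in flower, 6661 in stem, 4039 in root and 1537 in leaf, the lowest of the 4. Its neighbour in the same component, c155537_g2_i1, was at 3622 in flower, 1867 in stem, 770 in leaf and 29.4 in root. Their differences were -2.99 and -2.23 log2 units as deposited and -5.16 and -4.40 with the step factors divided out, so leaf was lower under each scaling. Contig c136546_g3_i1 had a flower value of 5002 FPKM, with 105 in leaf, 3.34 in root and 13.01 in stem, a difference of -5.56. Contig c109042_g1_i1 was abundant in both tissues, at 6778 FPKM in leaf, 4471 in flower and 1051 in stem, and was listed at 0 in root.

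Of the 5169 contigs, 199 were listed at 0 in flower and 68 in leaf. The highest of those at 0 in flower was c42683_g1_i1, at 349 FPKM in leaf and 0 in root and stem. Contig c27910_g1_i1 was at 283 in leaf, 7.90 in stem and 5.11 in root. Contigs c116447_g1_i1 and c135553_g2_i1 were at 272 and 205 in leaf, with 0.22 and 1.03 in stem and 0 in root. On this side no contig passed 350 FPKM. The highest contigs at 0 in leaf were c118652_g1_i1, c118725_g1_i1, c161974_g1_i1 and c128181_g1_i1, described above, which reached 506 to 20372 FPKM in flower.

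Contigs of near-equal level were also found at high abundance. As deposited, the 5 most abundant contigs within 0.25 log2 units of equality were c87099_g1_i1, c145737_g2_i1, c142460_g1_i1, c204572_g1_i1 and c165547_g1_i1. Contig c87099_g1_i1 was at 1185 FPKM in leaf and 1308 in flower, and c204572_g1_i1 at 670 and 731. Contigs c145737_g2_i1 and c142460_g1_i1 are the contigs of HSP70_PEQU_21700 and HSP90_PEQU_19268. Contig c165547_g1_i1 was at 587 in leaf and 545 in flower but at 3.26 in root and 91.0 in stem. After median-of-ratios scaling these 5 contigs were all higher in flower, by 0.60 to 0.97 log2 units, and the nearly equal contigs of highest abundance were others. They were c109042_g1_i1, c195428_g1_i1, at 1867 FPKM in leaf and 1047 in flower before that scaling, c123932_g1_i1, at 1928 and 933, c143410_g1_i2, at 1299.6 and 870.3, and c124785_g1_i1, at 1301 and 835. Contigs c109042_g1_i1 and c143410_g1_i2 were listed at 0 in root.

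Contigs of the same Trinity gene mostly had like differences. In 419 Trinity genes at least 2 contigs were among those compared, 934 contigs in all, and the spread between the contigs of a gene had a median of 0.30 log2 units. It was under 1 in 343 genes and 2 or more in 35. Such contigs share sequence, and the division of reads between them is an estimate. In 6 genes contigs lay at least 2-fold to opposite sides, and in 0 genes at least 4-fold. The widest spread was that of c157306_g2, whose contig c157306_g2_i3 was at 199 FPKM in flower and 0 in leaf and root. Contig c157306_g2_i2 of the same gene was at 128 in leaf, 105 in flower, 106 in root and 122 in stem, and c157306_g2_i1 was at 71.0 in leaf and 53.1 in flower. The gene thus had 2 contigs of even level and 1 found almost in flower alone. In c142781_g1 the pattern was the reverse: c142781_g1_i1 was at 844 FPKM in leaf and between 3.79 and 3.89 in the other tissues, while c142781_g1_i2 was at 95.7 in leaf and 75.9 in flower. Contig c157014_g1_i3 was at 1670 in leaf and 76.2 in flower, whereas c157014_g1_i1 was at 70.5 and 156 and c157014_g1_i2 at 86.2 and 143. In c147208_g1 contig c147208_g1_i2 was at 74.3 FPKM in flower and 1.25 in leaf, and c147208_g1_i1 at 35.8 and 84.8.

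Root and stem, which played no part in choosing the contigs or their classes as deposited, differed between the leaf-high and the flower-high contigs. The 248 flower-high contigs were low in root, with a median of 0.333 FPKM and 62.5% below 1 FPKM, and had a stem median of 7.27. The 1814 leaf-high contigs had medians of 9.52 in root and 12.3 in stem, with 20.2% below 1 FPKM in root. The 3107 contigs within 4-fold had medians of 32.1 in root and 38.5 in stem, and 3.67% of them were below 1 FPKM in root. Over all 5169 contigs the share below 1 FPKM was 12.3% in root and 5.80% in stem. Stem exceeded root in 77.02% of flower-high contigs, in 49.6% of leaf-high contigs and in 58.0% of all 5169. The median-of-ratios factors draw on root and stem as well. After that scaling of the classes, the share below 1 FPKM in root was 46.3% for 367 flower-high and 27.6% for 1223 leaf-high contigs. The root medians of these classes, still in deposited FPKM, were 1.77 for flower-high and 5.47 for leaf-high contigs. Their stem medians were 12.5 and 7.30, so the order of the classes in stem turned with this scaling, while that in root did not. Classes with the step factors divided out were not examined for root and stem.

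**Figure D4:**
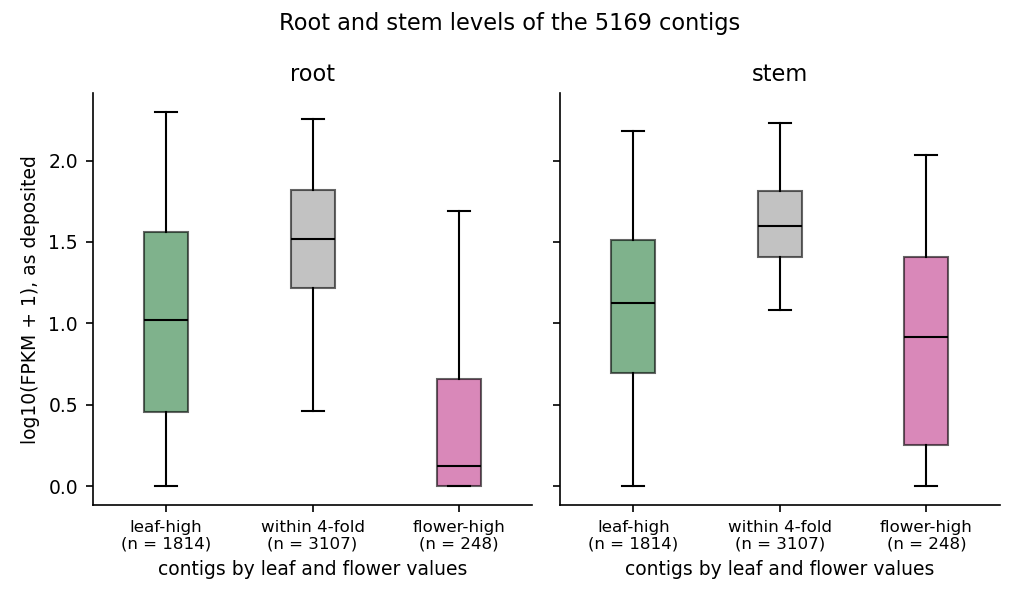
Root (left) and stem (right) levels, log10(FPKM + 1) as deposited (y axis), for contigs at least 4-fold higher in leaf, within 4-fold, and at least 4-fold higher in flower (x axis). Boxes span the quartiles with the median as a line, and whiskers the 5th to 95th percentile; the flower-high contigs are lowest in root, with a median of 0.333 FPKM.

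Most contigs at the ends of the comparison were also high against root and stem. Leaf exceeded root and stem alike by at least 4-fold in 1286 leaf-high contigs, or 70.9%, and flower did so in 191 flower-high contigs, or 77.02%. In the other contigs root, stem or both came within 4-fold of the higher tissue or above it. Over all 5169 contigs flower exceeded root and stem alike by at least 4-fold in 7.66%. Stem was within 4-fold of flower, or above it, in 48 flower-high contigs, or 19.4%, and root in 19, or 7.66%. Over all 5169 contigs these shares were 91.5% and 78.1%. For leaf-high contigs stem was within 4-fold of leaf, or above it, in 350, or 19.3%, and root in 430, or 23.7%. The matching shares for leaf over all contigs were not computed. Root was the highest of the 4 tissues in 70 leaf-high contigs, or 3.86%, and in 3 flower-high contigs, or 1.21%, beside 6.73% of all 5169. All these counts use deposited values, in which the step factor was 3.19 in leaf, 0.724 in root and 0.612 in stem. With the classes taken after median-of-ratios scaling, leaf exceeded root and stem by at least 4-fold, still in deposited values, in 996 leaf-high contigs, or 81.4%. Flower did so in 240 flower-high contigs, or 65.4%, so the order of the 2 shares turned. Across all 5169 contigs Pearson's r of log2(FPKM + 1) was 0.69 between flower and stem, 0.47 between leaf and stem, 0.45 between flower and root and 0.41 between leaf and root. Over the 1776 contigs at 50 FPKM or more in leaf and flower alike, r was 0.60 for flower and stem and 0.63 for leaf and stem. With root it was 0.21 for flower and 0.35 for leaf. These are correlations across contigs, which are not independent replicates.

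The heat shock proteins were placed in this distribution from the table of gene models matched to contigs. HSP20 proteins are small chaperones that hold unfolding proteins, HSP70 proteins bind and refold them with ATP, and HSP90 proteins mature signalling clients. The 28 models with a contig fell on 27 contigs, of which 20 reached 50 FPKM: 8 of 13 for HSP20, 7 of 8 for HSP70 and 5 of 6 for HSP90. All 27 contigs were placed, whatever their level. By sign, 12 of the 27 were higher in leaf and 15 in flower as deposited, and 5 and 22 after median-of-ratios scaling. The median of the 5169 contigs itself lay on the leaf side as deposited, at 1.27, beside 0.50 for contigs reaching 50 FPKM in both tissues. Relative to the 5169 contigs, heat shock contigs lay towards the flower side. That set holds 2919 contigs that reached 50 FPKM in leaf alone and 474 in flower alone, which moves its median to the leaf side. Positions among contigs reaching 50 FPKM in both tissues were not computed. Of the 27, 24 were below the median difference of the 5169 contigs and 19 were in the lowest quartile, with 0 in the highest quartile. A factor common to all contigs of a library hardly changes such positions, so the like counts after median-of-ratios scaling, again 24, 19 and 0, and with the step factors divided out, 24, 18 and 0, follow by construction.

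HSP20 had the largest share on the flower side. Its median difference was -1.51 log2 units as deposited, -2.29 after median-of-ratios scaling and -3.52 with the step factors divided out, beside 1.27, 0.46 and -0.85 over the 5169 contigs. At least 4-fold higher in flower were 4 of 13 contigs as deposited and 7 of 13 after median-of-ratios scaling. The share over all contigs of 1 FPKM or more in leaf or flower was 4.12% as deposited and 5.69% after that scaling. In leaf 1 of 13 was as much higher as deposited and 0 after scaling, beside 21.4% and 12.2% of all contigs. The contig of HSP20_PEQU_14369 was at 391 FPKM in flower and 0.862 in leaf, and only 0.2% of the 5169 contigs lay further to the flower side. The contig of HSP20_PEQU_07221 followed at 52.1 FPKM in flower and 2.20 in leaf, with 2.5% of contigs below it, and then that of HSP20_PEQU_23676 at 122 and 7.69, with 2.7%. These contigs were at least 4-fold higher in flower under each of the 3 scalings. HSP20_PEQU_09331 was abundant in both tissues, at 246 FPKM in flower and 151 in leaf, and yet 10.1% of contigs lay below it. Those of HSP20_PEQU_14367, HSP20_PEQU_14371, HSP20_PEQU_14374 and HSP20_PEQU_10259 lay between the 5.2% and 9.3% positions. They were at 53.9 to 89.1 FPKM in flower and 18.2 to 46.9 in leaf.

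Among HSP20 contigs under 50 FPKM, HSP20_PEQU_09328 was at 36.9 FPKM in flower and 4.95 in leaf, a difference of -2.67, and HSP20_PEQU_08607 at 19.6 and 4.69, a difference of -1.86. The widest to the leaf side was HSP20_PEQU_23675, at 39.6 FPKM in leaf and 6.61 in flower. Its exact leaf value was shared by 29 contigs. The remaining 2 contigs were at or under 4 FPKM in both tissues. Low leaf values of the flower-high HSP20 contigs were shared more widely. That of HSP20_PEQU_14369 was found in 360 contigs, that of HSP20_PEQU_07221 in 265, that of HSP20_PEQU_09328 in 135 and that of HSP20_PEQU_23676 in 55. These leaf values may likewise rest on few reads, which was not tested.

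HSP70 and HSP90 contigs lay nearer to equal levels, and the sign of their medians depended on the scaling. The HSP70 median was 0.03 as deposited, -0.78 after median-of-ratios scaling and -2.10 with the step factors divided out. The HSP90 median was 0.37, -0.44 and -1.74. These HSP90 values lay near the medians of the 1776 contigs at 50 FPKM or more in both tissues, 0.50, -0.32 and -1.65. HSP70_PEQU_02517 was furthest to the flower side, at 372 FPKM in flower and 126 in leaf, with 5.8% of the 5169 contigs below it. HSP70_PEQU_18080 was furthest to the leaf side, at 14278 in leaf and 2829 in flower, a difference of 2.33 log2 units as deposited and 0.16 with the step factors divided out. It stood at the 70.6% position, so that a large leaf excess by FPKM was still below the upper quartile of the distribution. HSP70_PEQU_21700 was at 794 FPKM in leaf and 682 in flower, HSP70_PEQU_03033 at 312 and 169, and HSP70_PEQU_38972 at 86.4 and 64.3. These lay at the 21.9%, 38.9% and 26.6% positions. HSP70_PEQU_15134 and HSP70_PEQU_17275 were at 52.8 and 53.0 in flower and 47.4 and 39.4 in leaf. HSP90_PEQU_19268 was nearly even at 742 in leaf and 706 in flower. HSP90_PEQU_00122, at 154 in leaf and 59.1 in flower, was the HSP90 contig furthest to the leaf side and lay at the 52.3% position. HSP90_PEQU_15042 was at 551 and 297, HSP90_PEQU_14751 at 180 and 144, and HSP90_PEQU_19561 at 77.5 and 61.1. All 6 HSP90 contigs were higher in leaf as deposited, 2 after median-of-ratios scaling and 0 with the step factors divided out.

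Plant disease resistance genes, or R genes, mostly encode receptors inside the cell that detect pathogen proteins. The 35 models fell on 17 contigs, and only 2 of these reached 50 FPKM. The contig of PEQU_27349 had 118 FPKM in leaf, 23.4 in flower, 84.7 in root and 50.4 in stem, a difference of 2.29 log2 units. The contig of PEQU_12877 was at 64.6 in leaf, 13.7 in flower, 25.8 in root and 32.0 in stem, a difference of 2.16. Both were past 4-fold as deposited and neither after median-of-ratios scaling, at 1.48 and 1.36. They stood at the 69.8% and 67.6% positions of the 5169 contigs. The other 15 contigs were under 50 FPKM in both tissues. Over all 17 contigs the median difference was 1.62 as deposited, 0.92 after median-of-ratios scaling and -0.14 with the step factors divided out, so its sign turned in the last. Above the median of the 5169 contigs were 12 of 17 as deposited, 13 after median-of-ratios scaling and 16 with the step factors divided out. On log2(FPKM + 1) a scaling factor moves low contigs less than abundant ones, so the positions of low R gene contigs shift with it. The contig of PEQU_23626, at 0.16 FPKM in leaf and 0.149 in flower, went from the 18.3% to the 34.7% position after median-of-ratios scaling. The part of this in the rising count was not tested. At least 4-fold higher in leaf were 5 of 17 as deposited and 1 after median-of-ratios scaling, beside the 21.4% and 12.2% of all contigs of 1 FPKM or more, and 0 were as much higher in flower under either. The contig of PEQU_41464 was the widest, at 27.7 FPKM in leaf, 0.778 in flower, 21.9 in root and 17.8 in stem, a difference of 4.01 log2 units as deposited and 2.21 with the step factors divided out. A single contig, c157580_g2_i2, stood for 16 models and lay at the 50.1% position.

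**Figure D5:**
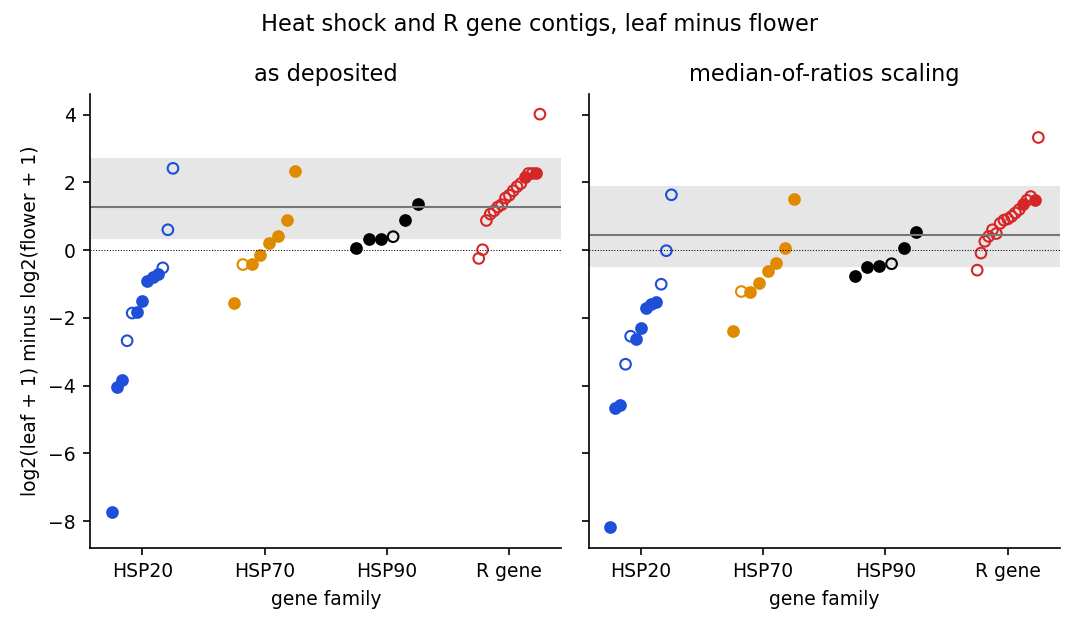
Leaf minus flower difference of log2(FPKM + 1) (y axis) for each contig of the heat shock and R gene families (x axis), as deposited (left) and after median-of-ratios scaling (right); filled points reached 50 FPKM. The grey band is the interquartile range of the 5169 contigs and the grey line their median, 1.27 and 0.46; 11 of 13 HSP20 contigs lie below the band in both panels.

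The contigs nearest to the level of 50 FPKM show what the choice leaves out. Just inside were c149249_g1_i1, at 50.03 FPKM in leaf and 31.8 in flower, c137626_g1_i1, at 50.06 and 20.5, and c140043_g2_i1, at 19.0 in leaf and 50.07 in flower. Just outside were c93666_g2_i1, at 49.99 in leaf and 28.5 in flower, c148598_g1_i2, at 49.99 and 38.6, and c154197_g1_i1, at 36.9 in leaf and 49.97 in flower.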

How the data were processed

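The authors assembled the reads of 4 libraries with Trinity, release r2013-02-25, and kept contigs of 200 nucleotides or more, as the design text of the series says. Their processing notes list edgeR and DESeq, but not how the authors used them. The sources used here do not name the mapper or the FPKM estimator. The deposited tables hold FPKM per contig and, for the heat shock and R gene models, a bit score and an e-value of the match to a contig, per the file headers. The deposited values of these tables equalled those of the same contigs in the table of all contigs. FPKM values are not counts, no read totals were given in the tables used here, and no test was made, since each tissue has 1 library.

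Contigs of at least 50 FPKM in leaf or flower were kept, c157498 was left out, and differences were taken on log2(FPKM + 1), which understates the change of low contigs. The call was a difference of at least 4-fold. Median-of-ratios factors were the median, over contigs of at least 1 FPKM in all 4 libraries, of a library's value over the geometric mean. Steps were fitted over distinct values up to 273 FPKM in leaf and 52.4 to 62.0 in the other libraries. Contigs were named by fixed rules: the 8 widest differences on each side, the 6 highest levels in each tissue, the 5 most abundant within 0.25 log2 units of equality, the 4 highest listed at 0 in the other tissue, the 4 Trinity genes of widest spread, and those nearest to 50 FPKM. Each of these lists took at most 1 contig per Trinity gene, except the spread list. From the heat shock and R gene tables, contigs of at least 50 FPKM and the 2 widest on each side among the rest were named. Components, the contig of PEQU_23626 and the contig shared by 16 models were chosen outside these rules, after their values were seen. The level of 10 contigs for a recurring leaf value was set after seeing the data. The contigs and lists were chosen with earlier results of these data known. The scripts, in Python 3.11.15 with pandas 2.3.3, were tested on simulated data. Alternatives are given in the closing section.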

Additional observations from a re-analysis of the deposited data

How the results depend on the processing

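No paired analysis was possible because each tissue has 1 library. The step factors and the recurring leaf values were examined after seeing the data. As deposited, the counts at least 4-fold higher in leaf and in flower, 1814 and 248, were 3776 and 579 at 20 FPKM or more, 485 and 67 at 200 FPKM or more, 2987 and 420 at 2-fold, 1145 in leaf at 8-fold, and 788 and 1045 with the step factors divided out. The median of 1.27 was 1.15 at 20 FPKM, 1.81 at 200 FPKM and -0.85 with the step factors divided out. After median-of-ratios scaling the counts of 1223 and 367 were 2635 and 847 at 20 FPKM, 336 and 97 at 200 FPKM, 1973 and 792 at 2-fold, 234 in flower at 8-fold, and 794 in leaf where 50 FPKM was applied after scaling. The median of 0.46 was 0.35 at 20 FPKM, 0.99 at 200 FPKM, -0.030 with sums set equal, 0.67 with factors from leaf and flower alone and 0.11 with 50 FPKM applied after scaling. Fewer or more contigs enter at another level or fold by construction. With the step factors divided out, 474 of the 1045 flower-high contigs reached 50 FPKM in flower alone and pass 4-fold by construction. The cause of the other changes was not tested.

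The HSP20 median of -1.51 was -1.34 with a pseudocount of 5, -2.29 with median-of-ratios factors, -2.77 with sums set equal, -1.21 with each gene model counted and -3.52 with the step factors divided out, and so kept its sign in these. The HSP70 median of 0.03 was -0.78 with median-of-ratios factors, -1.28 with sums set equal and -2.10 with the step factors divided out, and the HSP90 median of 0.37 was -0.44, -0.93 and -1.74. The R gene median of 1.62 was 1.96 and 1.05 with pseudocounts of 0.1 and 5, 0.92 with median-of-ratios factors, 0.51 with sums set equal, 1.28 with each gene model counted and -0.14 with the step factors divided out. Of 96 named contigs, 18 changed sign with median-of-ratios factors, 34 with the step factors divided out and 0 with either pseudocount; 11, 24 and at most 4 crossed 4-fold. Summing isoforms, keeping c157498, asking for 1 FPKM in both tissues or leaving out recurring leaf values moved no count of contigs by over 1.5 times.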

Other observations

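Leaf values shared by many contigs were also found below 50 FPKM. Between 25 and 50 FPKM, 14 leaf values were each shared by at least 20 contigs, among them 30.5 FPKM in 44 contigs and 39.6 FPKM in 29, the latter including the contig of HSP20_PEQU_23675. Contigs were also more frequent at the doubles of these values: within 1 step of the double, 12 of 14 held more contigs than 3 steps nearby on average, 120 contigs in all against 78.2. At the double of 30.5 FPKM, 61.0 FPKM, there were 12 contigs against 5.76. The limits of 25 FPKM and 20 contigs were chosen after seeing the data, and the part of these values in the leaf-high counts was not tested.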
